A study of Mus musculus with 20 samples.

Results

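The 10 genes described here are Srebf1 and 9 enzymes of fatty acid synthesis, desaturation and elongation that its product controls: Acly, Acaca, Fasn, Scd1, Scd2, Fads1, Fads2, Elovl5 and Elovl6. They were chosen by symbol, with earlier results of these data known, and all 10 were found among the 51456 gene symbols of each deposited table. Cells make fatty acids from citrate. Acly splits citrate to give cytosolic acetyl-CoA, Acaca carboxylates it to malonyl-CoA, and Fasn builds the saturated chain of palmitate from both. Elovl6 lengthens palmitate to stearate, and the stearoyl-CoA desaturases Scd1 and Scd2 put the first double bond into it. Fads1 and Fads2, the delta-5 and delta-6 desaturases, work with Elovl5 on polyunsaturated fatty acids that come from the diet or the medium. Srebf1 encodes SREBP1, a membrane-bound transcription factor that is cut and released to the nucleus, where it activates these enzyme genes. In macrophages, transcription of its SREBP1c form is driven by the oxysterol receptors LXR with RXR. The fatty acids made feed membranes, lipid droplets and dividing cells.

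RNA was measured in macrophages grown from the bone marrow of C57BL/6 mice aged 4 to 5 months. The KO group comprised 5 libraries from mice with a Trem2 knockout, labelled as a 5 bp knockout, the R47H group 5 libraries from knock-in mice that carry R47H in Trem2, and the WT group 10 libraries from wild-type mice. All 3 groups grew for 6 days with CSF-1, the macrophage growth factor, at 50 ng/ml and with 10% serum, and non-adherent cells were washed away. The design text speaks of 5 animals per genotype and of wild-type littermates of each line, and nothing in the labels ties a wild-type library to a line. All 10 were therefore the control of both mutants, so KO against WT and R47H against WT share their control libraries. The first 5 WT libraries (Rep1 to Rep5), listed before KO, and the last 5 (Rep6 to Rep10), listed before R47H, were also used as separate control sets. Trem2 encodes a lipid-sensing receptor of macrophages, and in humans its R47H variant raises the risk of Alzheimer's disease.

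Levels are given in FPKQ, the deposited unit, which is read here as fragments per kilobase of transcript on a scale set by a quantile of each library. It is a level per length, so levels of different genes may be compared. Fold changes are on the scale of log2(FPKQ + 1), which understates changes of genes with low levels. A gene is called where limma's adjusted p, taken over the 10843 genes whose mean reached 1 FPKQ, is under 0.05. All 10 genes reached that mean, Elovl6 with 0.931 FPKQ in KO. Judged from the low values of genes with 1 annotated transcript, a level of 1 FPKQ over 2 kb was worth 46.4 to 56.9 fragments in KO, 48.2 to 57.6 in R47H and 56.3 to 70.9 in WT. Trem2 stood at 24.1 ± 0.435 FPKQ in KO (SD, n = 5) and 652 ± 137 in R47H (n = 5), against 806.0 ± 60.6 in WT (n = 10; two-sided exact permutation p = 6.66e-04 for KO and 0.0167 for R47H). With WT Rep6 to Rep10 as the control, the R47H difference in Trem2 was no longer past 0.05 (-0.27 on the log2 scale, exact permutation p = 0.135). The 8 macrophage markers summed to 32452 to 35218 FPKQ in KO, 26406 to 29495 in R47H and 23155 to 26582 in WT, a sum made up mostly of Lyz2, and they did not all move one way: the mean of Csf1r was 1308 in KO, 1085 in R47H and 935 in WT, and that of Cd14 was 301 in KO, 581 in R47H and 731 in WT. The 6 adipocyte markers, which would mark cells rich in these enzymes, summed to at most 0.137 in KO, 0 in R47H and 0.144 in WT, with Lep, Plin1 and Cfd at 0 in every library. The 6 fibroblast markers were low in all groups but moved with genotype, at 0.502 to 1.75 in KO, 0.0323 to 0.567 in R47H and 0.0175 to 0.257 in WT, with Lum at 0 in R47H and WT. The 8 neutrophil markers summed to more, mostly from S100a8 and S100a9. Their sum was 37.3 to 67.6 in KO, 39.8 to 99.3 in R47H and 37.0 to 71.4 in WT. The 6 genes of dividing cells summed to 17.0 to 19.0 in KO, 42.9 to 73.3 in R47H and 118 to 157 in WT. The part of these lists in the results below was not tested. In RNA from whole cultures, fewer cells that express a gene and less RNA per cell cannot be told apart.

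On GRCm38, 4 of the 10 genes lie on chromosome 11 and 4 on chromosome 19, all protein-coding in GENCODE M21. Srebf1 (chromosome 11, 60199089 to 60222581, minus strand), Fasn (120805846 to 120824547, minus), Acaca (84129672 to 84401651, plus) and Acly (100476353 to 100528000, minus) share chromosome 11. The desaturase genes form 2 clusters of related genes on chromosome 19. Fads2 (10062765 to 10101746, minus strand) and Fads1 (10182888 to 10196877, plus) lie head to head, and Scd2 (44293674 to 44306864, plus) and Scd1 (44394455 to 44407879, minus) flank Scd4. Elovl5 lies on chromosome 9 (77917364 to 77984519, plus) and Elovl6 on chromosome 3 (129532355 to 129638495, plus). Near-identical copies could blur some values. Of all 75-base stretches of the longest annotated transcript, 47.4% in Acaca also occur in the gene model Gm5182, so the level of Acaca is uncertain. The share was 3.24% in Scd1, 1.80% in Scd2 and 2.28% in Elovl6, and 0 in the other 6 genes, so Scd1 and Scd2 are largely separable. The annotated span of Srebf1 overlaps that of Rai1, which lies on the other strand. The libraries were stranded, but the sources used here do not say whether the authors' counting used the strand. Reads from a stretch shared by both genes may therefore not have been told apart, and the extent of shared transcript was not measured. The files give 1 value per gene, so the SREBP1a and SREBP1c transcripts of Srebf1 are not separated.

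The sequences just before the starts of 4 members are shown because all 4 genes were called lower in KO while these stretches hold different motifs. RefSeq windows around annotated starts, on GRCm38.p6, were matched for 7 members (9 windows), and not for Scd1, Scd2 and Fads1. Each line below is 150 bases on the strand of the gene, ending just before its GENCODE start, and capitals mark CCAAT boxes (CCAAT, bound by NF-Y) and GC boxes (GGGCGG, bound by Sp1) on either strand. The regions are chr11:120824548-120824697 (minus) for Fasn, chr3:129532205-129532354 (plus) for Elovl6, chr9:77917214-77917363 (plus) for Elovl5 and chr11:100528001-100528150 (minus) for Acly.
Fasn: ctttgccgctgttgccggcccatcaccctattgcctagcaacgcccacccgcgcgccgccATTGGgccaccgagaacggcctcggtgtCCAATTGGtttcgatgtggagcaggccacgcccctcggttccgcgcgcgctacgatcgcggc
Elovl6: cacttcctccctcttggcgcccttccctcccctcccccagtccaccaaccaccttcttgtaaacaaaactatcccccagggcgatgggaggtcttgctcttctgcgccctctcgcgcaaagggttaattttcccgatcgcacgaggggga
Elovl5: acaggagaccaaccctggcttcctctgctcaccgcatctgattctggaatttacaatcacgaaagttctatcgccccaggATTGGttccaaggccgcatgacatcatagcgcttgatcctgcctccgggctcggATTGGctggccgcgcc
Acly: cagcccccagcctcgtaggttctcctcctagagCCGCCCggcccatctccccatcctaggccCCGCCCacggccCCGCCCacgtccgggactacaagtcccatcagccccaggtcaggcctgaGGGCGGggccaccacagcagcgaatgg
The Fasn stretch holds 3 CCAAT boxes, of which 2 overlap, that of Elovl5 holds 2, that of Acly holds 4 GC boxes, and that of Elovl6 holds neither. Over whole windows, a CCAAT box was present in 5 of the 9 member windows, from 4 of the 7 members, and in 37.4% of all 32851 windows. A GC box was in 4 of the 9, from 3 members, and in 35.7% of all. The letters TCACNCCAC, a form of the sterol regulatory element bound by SREBPs, were in none of the 9 windows and in 1.24% of all. The E-box CACGTG was in the window of Elovl5 alone among these 7 members and in 7.15% of all.

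In WT macrophages, Scd2 was the most abundant of the 10 transcripts, at 89.0 ± 7.97 FPKQ (SD, n = 10). Fads1, Acly and Elovl5 followed at 73.4, 62.0 and 49.0, and in all 10 WT libraries these 4 kept that order although their ranges overlapped. Fads2 and Srebf1, at 29.1 and 28.8 over all WT libraries, changed order between the 2 WT sets. Srebf1 was the higher in every library of Rep1 to Rep5, with means of 29.92 and 23.45 for Fads2. Fads2 was the higher in every library of Rep6 to Rep10, with means of 34.77 and 27.77 for Srebf1. Fasn stood at 17.8, Scd1 at 10.5, Acaca at 6.58 and Elovl6 at 2.10, each apart from the next. Scd2, not Scd1, was thus the main stearoyl-CoA desaturase transcript of these cells. In KO macrophages Fads1 and Acly led the order at 59.4 and 53.2 FPKQ, and Elovl5 followed at 35.7. Scd2 came next at 21.5, with its range overlapping that of Srebf1 at 20.2. R47H macrophages had Fads1 at 67.5, Acly at 57.4, Scd2 at 45.3 and Elovl5 at 41.2, with overlapping ranges between each and the next.

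**Figure D1:**
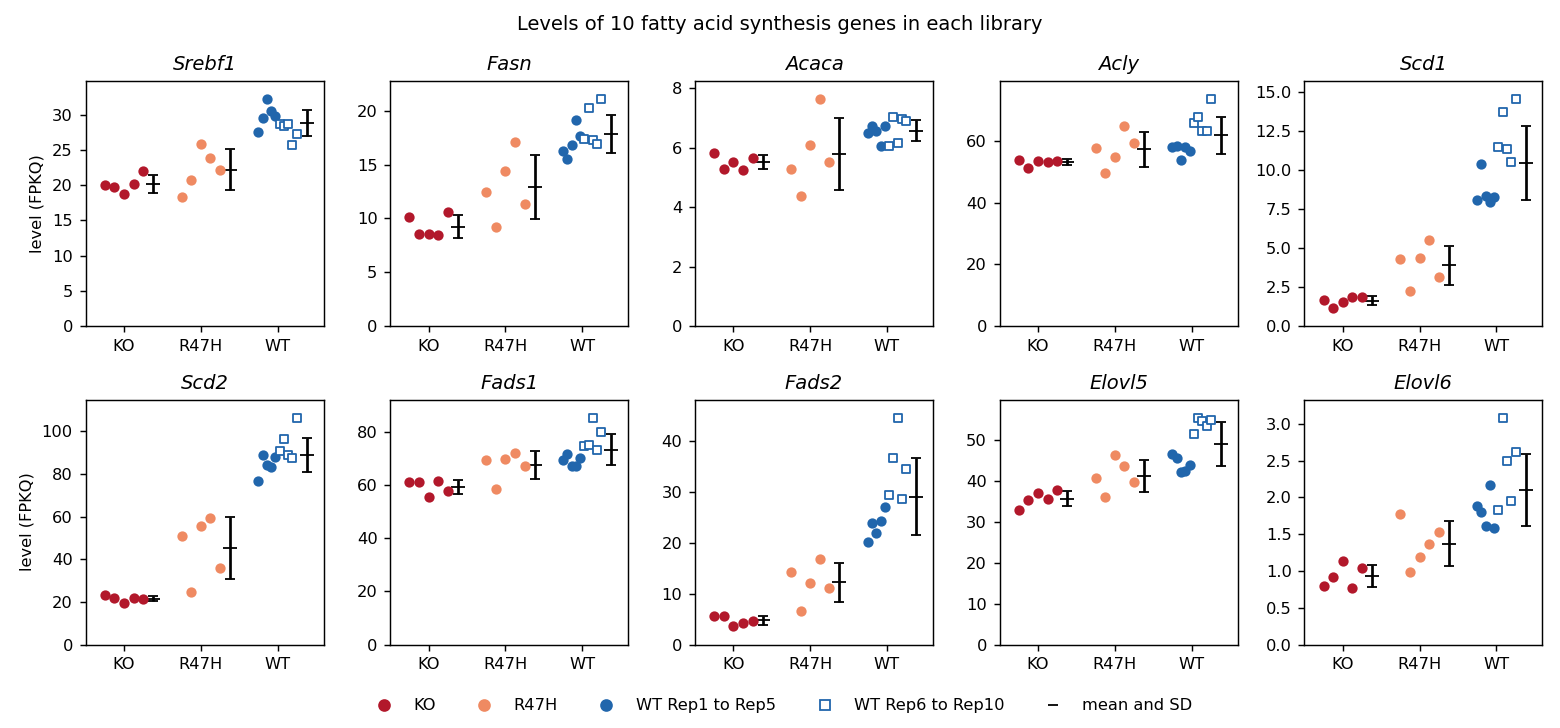
Levels of the 10 genes in FPKQ in every library of KO (5), R47H (5) and WT (10: filled circles Rep1 to Rep5, open squares Rep6 to Rep10), each panel with its own axis from 0; black marks are the mean and SD. Scd1, Scd2 and Fads2 separate all 3 groups, at 1.63, 21.5 and 4.77 on average in KO and 10.5, 89.0 and 29.1 in WT, whereas Acly and Fads1 differ little.

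The comparison of KO with WT asks which transcripts differ where Trem2 is knocked out. All 10 genes fell in KO, with the 3 desaturase genes Scd1, Scd2 and Fads2 falling most and the acetyl-CoA and malonyl-CoA enzymes Acly and Acaca least. Over all 10843 genes tested, 52.0% were called, 23.7% lower in KO and 28.2% higher. The median log2 fold change was -0.58 over the 10 genes and 0.01 over all tested genes. In 9 of the 10 genes every KO library lay below every WT library, as was so for 13.3% of all tested genes, and in Acly the groups overlapped.

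Srebf1, the regulator, stood at 20.1, 19.8, 18.7, 20.2 and 22.1 FPKQ in KO replicates 1 to 5, against a range of 25.7 to 32.2 with a median of 28.7 in WT. No KO library reached the lowest WT library, and the KO mean was 70.0% of the WT mean. The log2 fold change was -0.49 (SE 0.06, limma adjusted p = 9.39e-07). Over the alternatives other than leaving out single libraries, with either set of 5 WT libraries as the control among them, its value ran from -0.57 to -0.43, against -2.60 to -1.21 for Scd1, -2.08 to -1.82 for Scd2 and -2.63 to -1.78 for Fads2.

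Among the enzymes that make palmitate, Fasn changed most. Fasn stood at 10.1, 8.52, 8.53, 8.45 and 10.6 FPKQ in KO, against 15.5 to 21.1 with a median of 17.4 in WT. The KO libraries lay well below WT, at 51.8% of its mean, with a log2 fold change of -0.88 (SE 0.10, limma adjusted p = 1.62e-07). Acaca stood at 5.82, 5.28, 5.54, 5.27 and 5.66 in KO, against 6.07 to 7.04 with a median of 6.65 in WT. The gap between the groups was narrow, and the log2 fold change was -0.22 (SE 0.07, limma adjusted p = 0.0162). Acly stood at 54.0, 51.5, 53.7, 53.4 and 53.5 in KO, against 54.0 to 73.7 with a median of 61.1 in WT. Here 4 of the 5 KO libraries lay below the lowest WT library, and the log2 fold change was -0.21 (SE 0.06, limma adjusted p = 0.00892). With WT Rep1 to Rep5 as the control, neither Acaca nor Acly was called (limma adjusted p = 0.0804 and 0.174), nor with depth as a covariate (0.134 and 0.214), and Acaca was not called with WT Rep6 to Rep10 as the control (0.0591).

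The stearoyl-CoA desaturases, which give oleate and palmitoleate, both dropped steeply. Scd1 stood at 1.67, 1.15, 1.57, 1.89 and 1.85 FPKQ in KO, against 7.98 to 14.6 with a median of 10.5 in WT. KO libraries held 15.5% of the WT mean, a log2 fold change of -2.11 (SE 0.15, limma adjusted p = 1.23e-10). Because KO levels were low, the ratio of the means, 0.155 or -2.69 on the log2 scale, was larger than that fold change. Scd2 stood at 23.2, 21.7, 19.6, 21.8 and 21.2 in KO, against 76.6 to 106 with a median of 88.3 in WT. It held 24.1% of the WT mean, a log2 fold change of -2.00 (SE 0.14, limma adjusted p = 5.79e-11). Scd1 had the 34th and Scd2 the 50th lowest log2 fold change among all tested genes.

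The desaturases of polyunsaturated fatty acids behaved unequally. Fads2, which encodes the rate-limiting delta-6 desaturase, stood at 5.71, 5.66, 3.69, 4.15 and 4.66 FPKQ in KO, against 20.1 to 44.6 with a median of 27.9 in WT. Every KO library lay far below WT, at 16.4% of its mean, and the log2 fold change of -2.36 (SE 0.18, limma adjusted p = 3.11e-10) was the 21st lowest of all tested genes. Its neighbour Fads1 stood at 61.1, 61.2, 55.4, 61.5 and 57.7 in KO, against 67.1 to 85.4 with a median of 72.4 in WT. The groups stood apart but close, and the log2 fold change was -0.30 (SE 0.06, limma adjusted p = 1.34e-04), a call lost once depth entered the model (limma adjusted p = 0.0581).

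Both elongases fell in KO, by less than the desaturases Scd1, Scd2 and Fads2. Elovl5 stood at 32.8, 35.2, 37.0, 35.6 and 37.6 FPKQ in KO, against 42.2 to 55.4 with a median of 49.0 in WT. The log2 fold change was -0.44 (SE 0.07, limma adjusted p = 2.66e-05). Elovl6, which supplies stearate to the Scd enzymes, was the scarcest of the 10, at 0.797, 0.915, 1.13, 0.772 and 1.04 in KO, against 1.59 to 3.08 with a median of 1.92 in WT. KO libraries held 44.2% of the WT mean, with a log2 fold change of -0.67 (SE 0.10, limma adjusted p = 1.14e-05). Near this level the pseudocount sets the size, and the value was -1.08 with a pseudocount of 0.1 and -0.26 with 5, called with both. Elovl6 still rested on an estimated 120 fragments in its lowest library.

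**Figure D2:**
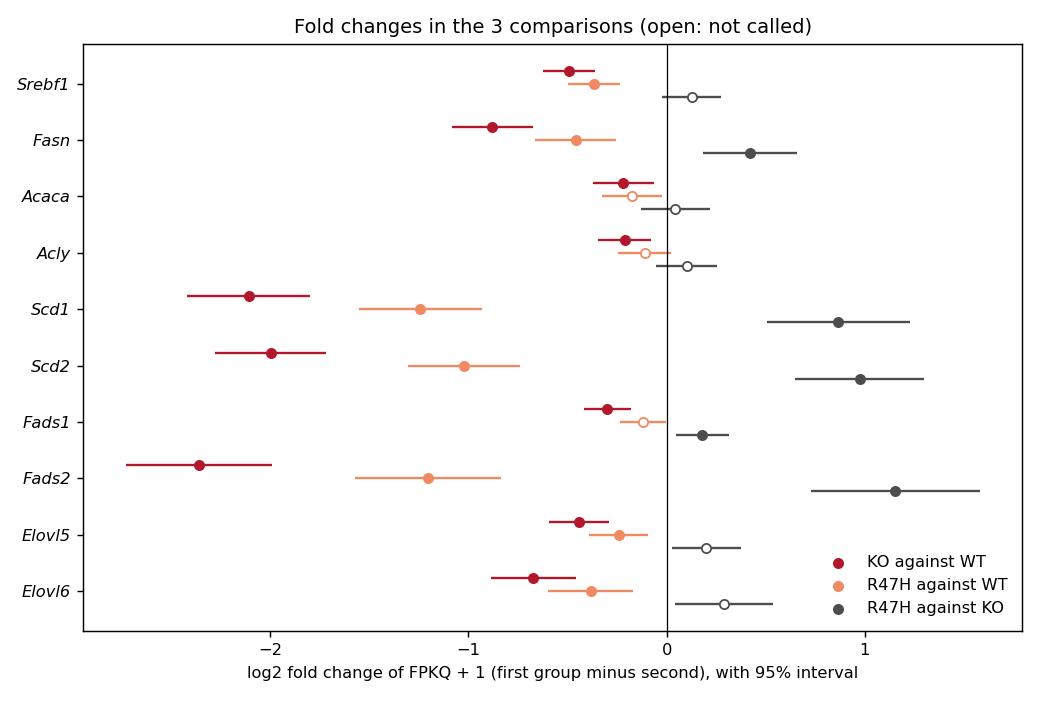
Log2 fold changes on the log2(FPKQ + 1) scale with 95% intervals for the 10 genes in KO against WT, R47H against WT and R47H against KO; filled points are called and open points are not. Fads2, Scd1 and Scd2 lie near -2 in KO against WT (-2.36, -2.11 and -2.00) and near -1 in R47H against WT (-1.20, -1.24 and -1.02).

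The comparison of R47H with WT asks which transcripts differ in the knock-in macrophages. Trem2 RNA itself averaged lower in R47H, so the substitution and the Trem2 level cannot be told apart here. The same 3 desaturase genes led: Scd1, Fads2 and Scd2 fell, as did Srebf1, Fasn, Elovl6 and Elovl5, while Acaca, Fads1 and Acly were not called. In total 7 of 10 fell, beside 21.2% of all tested genes called, 7.83% lower and 13.4% higher. The median log2 fold change was -0.38 over the 10 genes and 0.04 over all tested genes. With libraries rescaled to equal sums, which moved the median of all genes by -0.11, 16.8% of genes were called lower and 4.39% higher, and all 10 of these genes were called lower. In KO against WT equal sums gave 32.6% lower and 18.4% higher. Quantile normalization gave 9.88% lower and 9.34% higher in R47H against WT.

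Scd1 stood at 4.27, 2.22, 4.35, 5.51 and 3.14 FPKQ in R47H replicates 1 to 5, against 7.98 to 14.6 in WT. All R47H libraries lay below all WT libraries, at 37.2% of the WT mean, and the log2 fold change of -1.24 (SE 0.15, limma adjusted p = 3.12e-06) was the 8th lowest of all tested genes. Fads2 stood at 14.3, 6.62, 12.2, 16.9 and 11.2 in R47H, against 20.1 to 44.6 in WT. At 42.0% of the WT mean it had the 11th lowest log2 fold change, -1.20 (SE 0.18, limma adjusted p = 3.78e-05). Scd2 stood at 51.1, 24.7, 55.7, 59.1 and 35.7 in R47H, against 76.6 to 106 in WT. Its level was 50.8% of the WT mean, a log2 fold change of -1.02 (SE 0.14, limma adjusted p = 1.05e-05). These were the 3 genes of the 10 whose groups did not overlap, as was so in the lower direction for 3.14% of all tested genes.

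Srebf1 stood at 18.4, 20.8, 25.9, 23.9 and 22.2 FPKQ in R47H, against 25.7 to 32.2 in WT. Only R47H Rep3 reached into the WT range, and the log2 fold change was -0.37 (SE 0.06, limma adjusted p = 1.96e-04). Fasn stood at 12.5, 9.24, 14.4, 17.1 and 11.3 in R47H, against 15.5 to 21.1 in WT. Rep4 alone lay within WT, and the log2 fold change was -0.46 (SE 0.10, limma adjusted p = 0.00183). Elovl6 stood at 1.78, 0.993, 1.19, 1.36 and 1.53 in R47H, against 1.59 to 3.08 in WT, with a log2 fold change of -0.38 (SE 0.10, limma adjusted p = 0.0104). Elovl5 stood at 40.5, 36.0, 46.2, 43.5 and 39.6 in R47H, against 42.2 to 55.4 in WT, with a log2 fold change of -0.24 (SE 0.07, limma adjusted p = 0.0201). With WT Rep1 to Rep5 as the control neither elongase was called (limma adjusted p = 0.0930 for Elovl6 and 0.292 for Elovl5), nor with depth as a covariate (0.181 and 0.217), and Elovl5 was not called without R47H Rep2 (0.0837).

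The 3 genes not called had small values of the same sign. Acaca averaged 5.79 ± 1.20 FPKQ in R47H (n = 5) and 6.58 ± 0.363 in WT (SD, n = 10), a log2 fold change of -0.17 with a 95% interval of -0.33 to -0.02 (limma adjusted p = 0.0953). Without R47H Rep4, the R47H library highest in Acaca at 7.64, it was called (-0.27, limma adjusted p = 0.00308). Fads1 averaged 67.5 ± 5.23 in R47H and 73.4 ± 5.74 in WT, with -0.12 and an interval of -0.24 to -0.0016 (limma adjusted p = 0.144). Acly averaged 57.4 ± 5.61 in R47H and 62.0 ± 5.98 in WT, with -0.11 and an interval of -0.24 to 0.02 (limma adjusted p = 0.245). Against WT Rep6 to Rep10 alone, Acly and Fads1 were called lower (-0.22 and -0.20, limma adjusted p = 0.0227 and 0.0317).

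R47H libraries varied more among themselves than KO libraries did, with a larger coefficient of variation in all 10 genes. The limma model used 1 shared spread per gene for all 3 groups. Its SEs and p-values in R47H against WT, and in R47H against KO below, therefore do not fully carry this wider spread. With only KO and R47H in the fit, 3520 genes were called in R47H against KO, in place of 4417. The coefficient of variation of Scd2 was 32.2% in R47H (n = 5), 5.95% in KO (n = 5) and 8.96% in WT (n = 10), and that of Acaca was 20.8% in R47H, 4.34% in KO and 5.51% in WT. One library, R47H Rep2, was the lowest of its group in 9 of the 10 genes, and R47H Rep4 was the highest in 7. For 5 of the 10 genes R47H Rep2 lay within the range of the KO libraries, and for none within that of WT. Its Trem2 level was 772 FPKQ, above the 673, 496 and 527 of R47H Rep1, Rep4 and Rep5. Mki67, a marker of dividing cells, was also lowest in R47H Rep2, at 5.69 against 7.97 to 10.3 in the other 4. Without R47H Rep2 the log2 fold changes in R47H against WT were -1.10 for Scd1, -1.02 for Fads2 and -0.83 for Scd2, all still called.

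**Figure D3:**
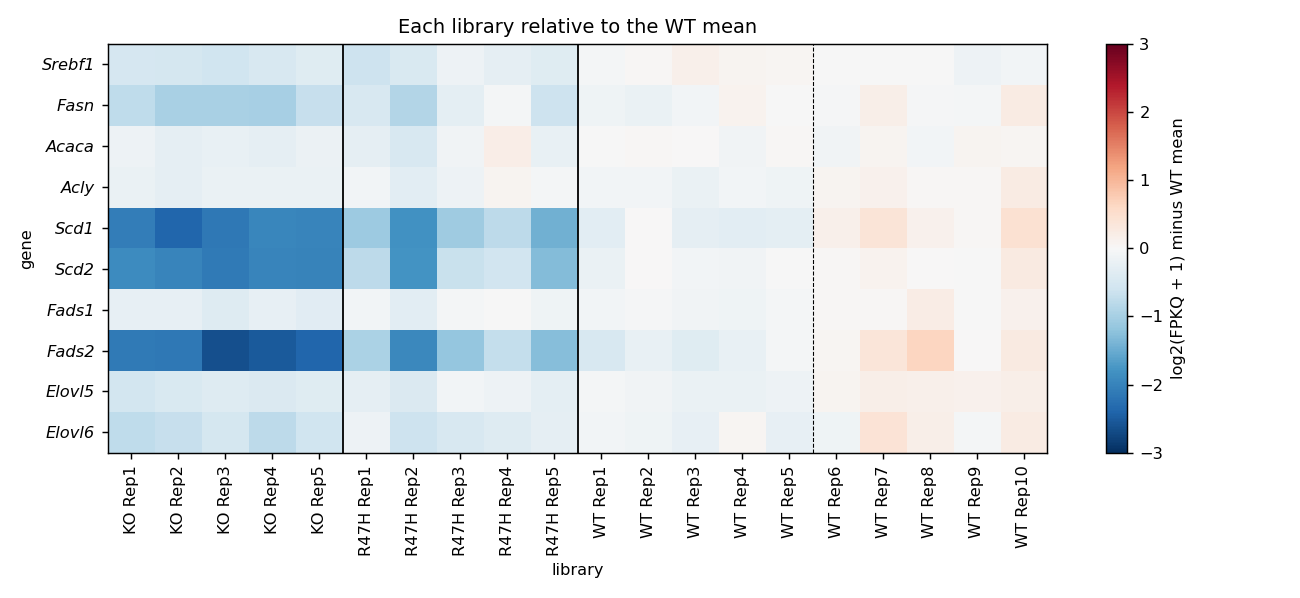
Each cell is the log2(FPKQ + 1) value of a gene (rows) in a library (columns) minus the mean of the 10 WT libraries; blue is lower, red higher, solid lines part the genotypes and the dashed line parts WT Rep1 to Rep5 from WT Rep6 to Rep10. The Scd1, Scd2 and Fads2 rows are darkest in KO, and R47H Rep2 is the darkest R47H column.

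Set against KO directly, R47H macrophages had higher levels of the desaturases and of Fasn. The log2 fold change of R47H over KO was 1.15 for Fads2 (SE 0.20, limma adjusted p = 1.62e-04), 0.97 for Scd2 (SE 0.16, 5.78e-05), 0.87 for Scd1 (SE 0.17, 5.14e-04), 0.42 for Fasn (SE 0.11, 0.00615) and 0.18 for Fads1 (SE 0.06, 0.0317). In the means, Fads2 stood at 12.2 FPKQ in R47H and 4.77 in KO, Scd2 at 45.3 and 21.5, and Scd1 at 3.90 and 1.63. These 5 genes rose, beside 40.7% of all tested genes called, 22.8% higher and 18.0% lower. In Scd1, Scd2 and Fads2 every R47H library lay above every KO library, as in 12.3% of tested genes. Srebf1 itself was not called, at 0.13 with a 95% interval of -0.02 to 0.28 (limma adjusted p = 0.170), nor were Acly (0.284), Acaca (0.709), Elovl6 (0.0555) and Elovl5 (0.0611). Leaving out 1 library turned some of these: Srebf1 was called without R47H Rep1 (0.19, limma adjusted p = 0.0298), Elovl5 without R47H Rep2 (0.0300), and Elovl6 without KO Rep3, WT Rep7 or R47H Rep2 (0.0483, 0.0342 and 0.0306). The call of Fads1 was lost under each of the 3 other scalings (limma adjusted p from 0.0730 to 0.149) and without any 1 of KO Rep3, KO Rep5, R47H Rep1, R47H Rep3 and R47H Rep4 (0.0623 to 0.0815). With each mutant taken relative to its own neighbouring set of wild-type libraries, 1 of the 10 genes, Scd2, was called higher in R47H, at 0.82 (limma adjusted p = 0.0165), while Fads2 was 0.62 and Scd1 0.40 (limma adjusted p = 0.0926 and 0.190).

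The 2 sets of wild-type libraries themselves differed in these genes, in a comparison added after the data were seen. Elovl5 stood at 53.9 ± 1.56 FPKQ in WT Rep6 to Rep10 and 44.1 ± 1.86 in WT Rep1 to Rep5 (SD, n = 5 each), a log2 fold change of 0.29 (limma adjusted p = 0.00400). Acly stood at 66.9 ± 4.24 and 57.2 ± 1.93 in the same order, with 0.22 (limma adjusted p = 0.0242). These 2 were called and 8 were not, beside 6.51% of all tested genes called, 3.63% higher in WT Rep6 to Rep10 and 2.88% lower. Fads2 and Scd1 had larger values that were not called, 0.54 and 0.47 (limma adjusted p = 0.0643 and 0.0533). In 5 of the 10 genes every library of Rep6 to Rep10 lay above every library of Rep1 to Rep5, as in 6.18% of tested genes. What separates these sets is not given by the labels.

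Ratios of related genes within a library do not depend on the scale of that library, and 4 pairs were compared in the 3 comparisons after the data were seen, with two-sided exact permutation tests adjusted over the 12. The ratio of Fads2 to Fads1 was 0.0802 ± 0.0130 in KO (SD, n = 5), 0.178 ± 0.0454 in R47H (n = 5) and 0.392 ± 0.0725 in WT (n = 10). Every KO and every R47H library lay below every WT library (exact permutation p = 6.66e-04 for each mutant, the smallest that 3003 splits can give, adjusted p = 0.00133). R47H also lay above KO (exact permutation p = 0.00794, adjusted 0.0106). The ratio of Scd1 to Scd2 was 0.0758 ± 0.0140 in KO and 0.0865 ± 0.00581 in R47H, against 0.117 ± 0.0173 in WT (adjusted exact permutation p = 0.00133 for each mutant), so Scd1 was lower relative to Scd2 in all 10 mutant libraries than in any WT library. The WT sets themselves stood apart in both of these ratios. Scd1 to Scd2 was 0.121 to 0.143 in WT Rep6 to Rep10 and 0.0941 to 0.117 in WT Rep1 to Rep5, and Fads2 to Fads1 was 0.391 to 0.523 and 0.291 to 0.386 in the same order. The highest R47H library, at 0.0931 for Scd1 to Scd2, lay close below WT Rep1 to Rep5, and the log2 difference of R47H was -0.24 from that set and -0.60 from WT Rep6 to Rep10, compared with -0.42 from all 10 WT libraries. KO and R47H overlapped in this ratio (adjusted exact permutation p = 0.143). The ratio of Elovl6 to Elovl5 was 0.0260 ± 0.00333 in KO and 0.0334 ± 0.00765 in R47H, against 0.0427 ± 0.00701 in WT (adjusted exact permutation p = 0.00133 and 0.0344). Against either WT set alone the R47H difference in this ratio did not pass (unadjusted exact permutation p = 0.103 for Rep1 to Rep5 and 0.0794 for Rep6 to Rep10). The ratio of Fasn to Acaca was 1.67 ± 0.133 in KO and 2.22 ± 0.145 in R47H, against 2.72 ± 0.279 in WT (adjusted exact permutation p = 0.00133 and 0.00457), with the doubt on the level of Acaca given above.

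**Figure D4:**
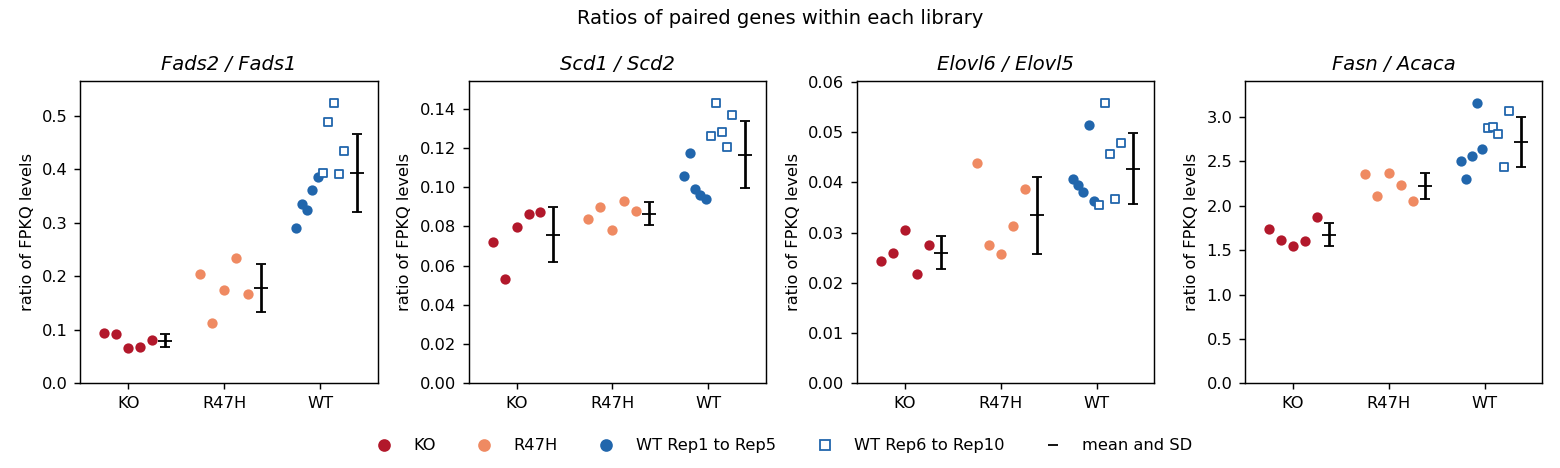
Ratio of FPKQ levels of 2 related genes in every library of KO, R47H and WT (WT Rep1 to Rep5 filled circles, Rep6 to Rep10 open squares), axes from 0, with mean and SD in black. Fads2 to Fads1 separates the 3 groups at 0.0802, 0.178 and 0.392, and the other ratios are also lowest in KO on average.

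Likeness over the 20 libraries was measured as the mean absolute difference between the log2 values of 2 genes, each centred on its own mean. This measure follows the size of the changes, so 2 genes that both change little also score as alike. Shared regulation was not tested. Among the 10 genes Acly and Fads1 were most alike, at 0.07, and Acly and Fads2 least, at 0.81. Of all tested genes, those closest to Srebf1 were Slc44a2, a choline transporter-like gene, at 0.07, Slc35e4 at 0.07, Anapc5, a subunit of the anaphase-promoting complex, at 0.09, and Tob1 at 0.09. Closest to Fasn were Lss, the lanosterol synthase of sterol synthesis, Scarb1, a lipoprotein receptor, Cacna1a, a calcium channel subunit, and Stard4, a cholesterol carrier, at 0.10 to 0.11. Scd1 was closest to Scd2 at 0.17, then to Qpct and the mitotic kinesin gene Kif2c at 0.19, and then to Fads2 at 0.19. Scd2 was closest to Racgap1, which acts in cytokinesis, at 0.12, Mki67 at 0.14, Foxm1, a transcription factor of mitotic genes, at 0.15, and Olfm1 at 0.15. Racgap1, for example, averaged 4.64 FPKQ in KO, 10.0 in R47H and 19.5 in WT.

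Of 62 other genes of the pathway in 5 lists, 51 were tested, and their directions were mixed. In KO against WT 15 rose, 18 fell and 18 were not called, with a median log2 fold change of -0.001. In R47H against WT 11 rose, 7 fell and 33 were not called, with a median of 0.02. Of all tested genes 28.2% were called higher and 23.7% lower in KO, and 13.4% higher and 7.83% lower in R47H.

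Genes that control SREBP1 moved in both directions. Of 14 tested, 6 rose and 3 fell in KO, and 4 rose and 2 fell in R47H, while with equal sums 2 rose and 5 fell in KO and 2 rose and 3 fell in R47H. Rxra, the RXR partner of LXR, rose to 38.3 ± 3.40 FPKQ in KO, against 12.6 ± 1.55 in WT (log2 fold change 1.53, limma adjusted p = 3.49e-13), and to 18.7 ± 0.880 in R47H (0.54, limma adjusted p = 1.67e-05). Insig1, which holds SREBPs in the endoplasmic reticulum and is itself a target of them, fell to 44.2 ± 2.79 in KO, against 85.1 ± 10.4 in WT (-0.92, limma adjusted p = 1.30e-08), and to 58.2 ± 8.57 in R47H (-0.54, limma adjusted p = 1.14e-04). Srebf2, the regulator of sterol synthesis, fell by 0.65 in KO and by 0.30 in R47H (limma adjusted p = 2.18e-08 and 0.00186). Nr1h3, which encodes LXR alpha and is named after its values were seen, stood at 19.8 ± 2.52 in KO and 25.9 ± 3.43 in R47H, compared with 16.0 ± 2.44 in WT (0.29 and 0.66, limma adjusted p = 0.0167 and 3.91e-05).

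The supply of acetyl-CoA and NADPH split by enzyme. Of 8 genes 3 rose and 3 fell in KO, and 3 rose and 5 were not called in R47H, while with equal sums 3 fell and 5 were not called in R47H. Slc25a1, the mitochondrial citrate exporter, fell to 44.3 ± 3.32 FPKQ in KO, against 63.4 ± 5.45 in WT (-0.51, limma adjusted p = 5.63e-06), and was not called in R47H (-0.13, limma adjusted p = 0.206) except with equal sums (-0.26, 0.00517) or quantile normalization (-0.22, 0.0211). Me1, the NADPH-forming malic enzyme, fell by 0.44 in KO (limma adjusted p = 1.67e-04), and Idh1, another NADPH source, rose by 0.26 (limma adjusted p = 2.54e-04). In R47H Idh1 rose by 0.20 (limma adjusted p = 0.00669), a call lost with equal sums (limma adjusted p = 0.260). Of 6 tested accessories of the carboxylase and synthase, 2 rose and 2 fell in KO, and all 6 were not called in R47H, where 2 fell with equal sums. Mid1ip1, an activator of acetyl-CoA carboxylase, fell by 0.48 in KO (limma adjusted p = 3.09e-06), while Oxsm, the synthase of the mitochondrial pathway, and Mlycd, which breaks down malonyl-CoA, rose by 0.38 and 0.23 (limma adjusted p = 8.49e-05 and 0.00774).

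Among the other elongation and desaturation genes, 1 of 10 tested rose and 5 fell in KO, and 1 rose and 1 fell in R47H, where that rise was not called under any of the 3 other scalings and 2 to 3 fell. Hacd1, a dehydratase of the elongation cycle, fell to 3.65 ± 0.460 FPKQ in KO, against 7.15 ± 1.38 in WT (-0.80, limma adjusted p = 1.31e-05), and to 4.41 ± 1.44 in R47H (-0.61, limma adjusted p = 0.00103). Hacd4, of the same family, rose by 0.91 in KO (limma adjusted p = 1.61e-08), and Hsd17b12, a reductase of the cycle, fell by 0.39 (limma adjusted p = 6.19e-05). The other 2 Scd genes were near absent. Scd3 was listed at 0 in all 20 libraries, and Scd4 averaged 0.0229 ± 0.0211 FPKQ in KO, 0.0386 ± 0.0411 in R47H and 0.155 ± 0.0801 in WT, too low to be tested.

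Genes that activate fatty acids or place them in lipids moved both ways, 3 up and 5 down of 13 in KO and 3 up and 4 down in R47H. These counts moved with the processing: in KO 2 were down with depth as a covariate or with WT Rep1 to Rep5 as the control, and in R47H 1 was up and 5 were down with equal sums, and 1 was up and 2 were down with depth as a covariate. Acsl3, an acyl-CoA synthetase of the endoplasmic reticulum and lipid droplets, fell to 11.5 ± 1.05 FPKQ in KO, against 22.2 ± 2.23 in WT (-0.89, limma adjusted p = 5.03e-09), and to 15.2 ± 2.26 in R47H (-0.52, limma adjusted p = 5.50e-05). Slc27a1, a fatty acid transport protein, fell by 0.74 in KO and 0.27 in R47H (limma adjusted p = 1.70e-09 and 0.00295). Lpin1, a phosphatidate phosphatase of glyceride synthesis, rose to 18.4 ± 1.88 in KO, against 7.35 ± 0.914 in WT (1.22, limma adjusted p = 9.13e-12), and to 9.92 ± 0.401 in R47H (0.39, limma adjusted p = 5.08e-04).

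**Figure D5:**
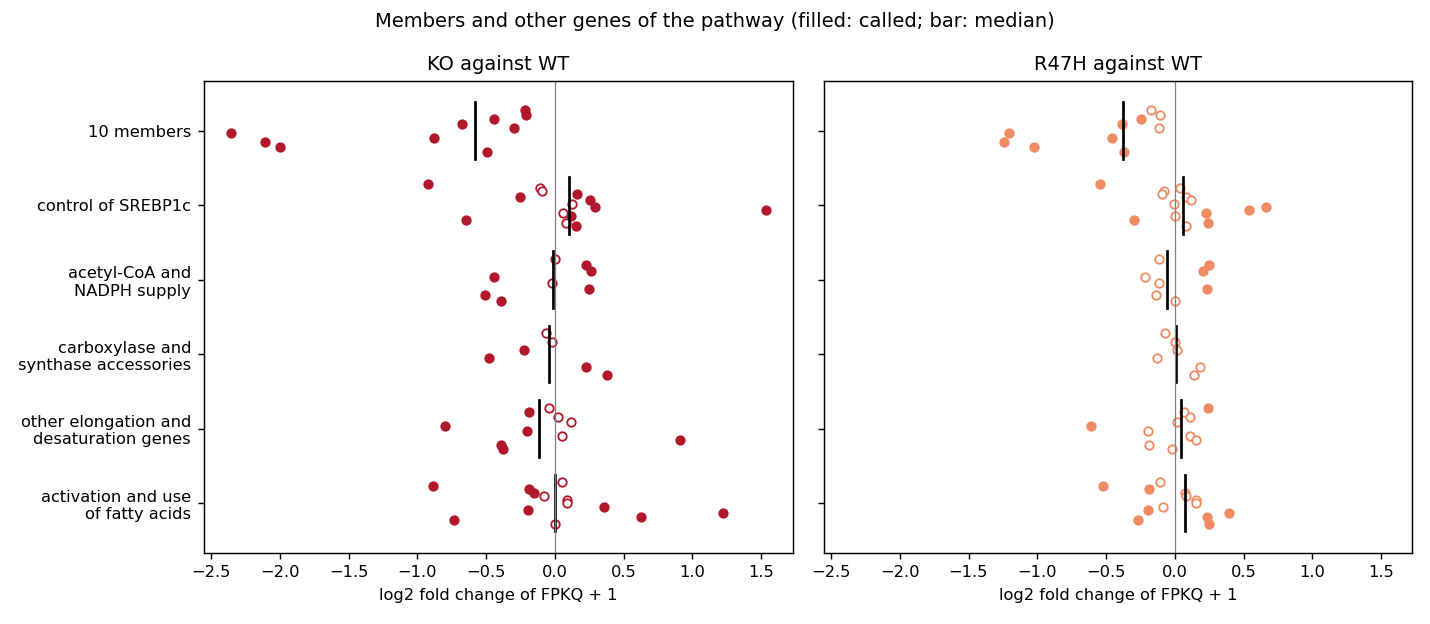
Log2 fold changes of the 10 genes (top row) and of the tested genes of 5 other lists of the pathway (rows below), for KO against WT on the left and R47H against WT on the right; filled points are called, open points are not, and black bars are medians. The 10 genes lie at or below -0.21 in KO, while every other list there holds genes called on both sides of 0.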

How the data were processed

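For each library the authors deposited gene symbols and an FPKQ value, used here as an FPKM on a quantile scale. RSEM and GRCm38 are named by the submitters' processing notes, and the sources used here give neither versions nor settings nor the definition of FPKQ. Per the labels' protocols, libraries were poly-A selected, stranded and read in pairs of 75 bases. Over protein-coding genes the 71.5th percentile was 9.98 to 10.03 FPKQ in every library. The step of 1 fragment was estimated from single-transcript genes (600 bases or longer), where 86.0% to 89.8% of low values were whole multiples within 0.1 fragment; effective lengths are unknown, so no count test was run, and read counts without molecular identifiers carry more than counting error. The test was limma (version 3.58.1, R 4.3.3; lmFit, eBayes with a trend) on log2(FPKQ + 1), in 1 model of the 3 groups, with Benjamini-Hochberg adjustment over 10843 genes; this method was also tried on simulated data. Exact permutation tests went through every split of the libraries, with pandas 2.3.3 and numpy 2.4.6 under Python 3.11.15. The 95% intervals used scipy 1.17.1. Of the 51456 symbols 45889 were found in GENCODE M21 (GRCm38), the source of coordinates. Promoter letters came from RefSeq on GRCm38.p6.

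The members, lists, tests and alternatives were chosen with earlier results of these data known. Named genes were all members, the 3 of lowest adjusted p in KO from each list, list genes with a log2 fold change of at least 1, and the 4 genes most like Srebf1, Fasn, Scd1 and Scd2. Where the labels do not say that libraries of a group came from separate animals, the p-values measure only the spread between libraries. No libraries held identical values.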

Additional observations from a re-analysis of the deposited data

Results flagged for a closer look

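Acly in KO Rep2 stood at 51.5 FPKQ, below the other 4 KO libraries at 53.4 to 54.0, and the gap took 0.759 of the range of the group, above the critical value of 0.71 for 5 libraries. This was the only library set apart in this way among 33 groups of values (the 10 genes and Trem2 in 3 genotypes), and chance gives about 1 in 20 groups.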

How the results depend on the processing

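In KO against WT all 10 genes kept their direction in every alternative, and outside the leave-one-out fits 121 values kept their call and 8 lost it, all of Acaca, Acly or Fads1. Leaving out each library gave 10 called genes of 10 each time, with 5217 to 5758 genes called in all. In R47H against WT the leave-one-out fits called 6 to 8 of the 10 and 1704 to 2360 genes in all, and depth as a covariate left 1141 genes called in place of 2301. Acly in R47H against WT was 0.0006 against WT Rep1 to Rep5 alone, and Fads1 was 0.0026 with depth as a covariate; the cause was not tested. Trem2 in R47H against WT Rep6 to Rep10 alone was -0.27 (exact permutation p = 0.135). In R47H against KO the leave-one-out fits called 4 to 7 of the 10 and 3743 to 4709 genes in all, and Acaca ran from -0.0481 (without R47H Rep4) to 0.1224. With each mutant relative to its own wild-type set, 1559 genes in place of 4417 and 1 of the 10 in place of 5 were called, and Acly and Elovl5 were -0.1191 and -0.0869. Elovl6 could not be fitted at a minimum mean of 5 FPKQ.

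The labels do not pair the libraries by number. Deviations of same-numbered libraries correlated at -0.152 to 0.216 between KO and WT, 0.045 to 0.163 between R47H and WT and -0.120 to 0.309 between R47H and KO, so that 1, 4 and 2 of 5 pairs passed 0.1, and 2, 4 and 2 of 10 libraries correlated best with their own number. WT Rep6 to Rep10 share no number with R47H. A replicate block on WT Rep1 to Rep5, KO and R47H called 8 of the 10 genes in KO against WT, 5 in R47H against WT and 6 in R47H against KO, with 4395, 1799 and 4176 genes called in all, and Acly in R47H against WT was 0.0006. In KO and R47H libraries 1 FPKQ stood on average for fewer fragments than in WT, which limits the precision of the low levels of Elovl6 and Scd1.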
